A study of Bos taurus with 38 samples.

Results

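The BCB negative oocytes of this series carry complex numbers from 3 runs, and the oocytes of complexes 86 to 91 (n = 6, called late here) were compared with those of complexes 65, 66 and 68 (n = 3, called earlier). These 9 libraries are 9 of the 10 BCB negative oocytes, of 19 oocytes and of 38 libraries in all. They were chosen by compartment, BCB class and complex number as the sample labels give them, and what a run of numbers stands for (a collection day, a plate or a sequencing run) is not given in the labels. Brilliant cresyl blue (BCB) is a vital stain used to sort oocytes, and the BCB negative class is the unstained one. Each library was made from a single immature cattle oocyte, separated with trypsin and pipetting from the cumulus cells of its own complex, after follicle aspiration from abattoir ovaries and BCB staining. Both groups are therefore BCB negative, stained and untreated otherwise, and the comparison asks how far oocytes of the same class differ among themselves. The cumulus cells of the same 9 complexes (n = 9) and the other oocytes of the series served for comparison: the BCB negative oocyte of complex 6 (n = 1) and the BCB positive oocytes of complexes 69 to 74 (n = 6) and of 17, 19 and 24 (n = 3). The animals behind the complexes are not given, so the p-values measure the spread between oocytes, which may share a donor.

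A growing mammalian oocyte transcribes and stores messenger RNA that will serve maturation and the first cleavages, and transcription falls silent as growth is completed. The stored transcripts encode the zona pellucida, the cell cycle machinery of meiosis, the ubiquitin and proteasome system that clears maternal proteins, and the ribosomal and mitochondrial proteins that the early embryo inherits. BCB negative oocytes are held to be still in growth. The cumulus cells are granulosa-derived somatic cells that reach the oocyte through thin projections across the zona pellucida.

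The late libraries held 19195112 to 29810354 counts and the earlier libraries 9389803 to 13424068, with no overlap between the groups. The log10 total was 7.38 ± 0.0761 (SD, n = 6) against 7.03 ± 0.0839 (n = 3; exact permutation test over the 84 splits, two-sided, p = 0.0119, the smallest p the design allows, and 0.0179 after Benjamini-Hochberg adjustment over 6 library values). Depth and run of numbers can therefore not be told apart in this comparison. Genes with at least 1 count numbered 19433 to 19878 in the late and 17664 to 18173 in the earlier oocytes (exact permutation p = 0.0119). When all libraries were thinned to the smallest total, the difference in detected genes went from 1718 to 600.2 genes with the same exact p. The 100 most counted genes took 9.84% to 10.9% of the counts in the late and 12.5% to 12.8% in the earlier oocytes (exact permutation p = 0.0119). The share of the 13 protein-coding genes of mitochondrial DNA overlapped, with 0.169% ± 0.0547 in the late and 0.183% ± 0.0265 in the earlier oocytes (exact permutation p = 0.643).

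Transcript abundance differed between the late and the earlier BCB negative oocytes for 257 of the 13204 genes tested (edgeR's quasi-likelihood test after trimmed mean of M values (TMM) scaling, Benjamini-Hochberg FDR under 0.01), which is 1.95% of the genes. Of these, 54 were higher and 203 were lower in the late oocytes. The lower genes were the more highly counted ones: their median abundance was 235 counts per 1000000 counts (CPM), against 85.5 for the higher genes and 32.05 for all genes tested, and they summed to 99329 CPM on average in the earlier and 62752 in the late oocytes. The changes were small, with a median log2 fold change (late minus earlier throughout) of -0.67 for the lower and 0.82 for the higher genes. All 257 genes had late and earlier libraries that did not overlap, as had 2458 of all genes tested (18.6%). When the genes were put into 10 equal groups by mean CPM, the highest group held 123 lower and 14 higher genes and the lowest group held none. CPM is not corrected for gene length.

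**Figure D1:**
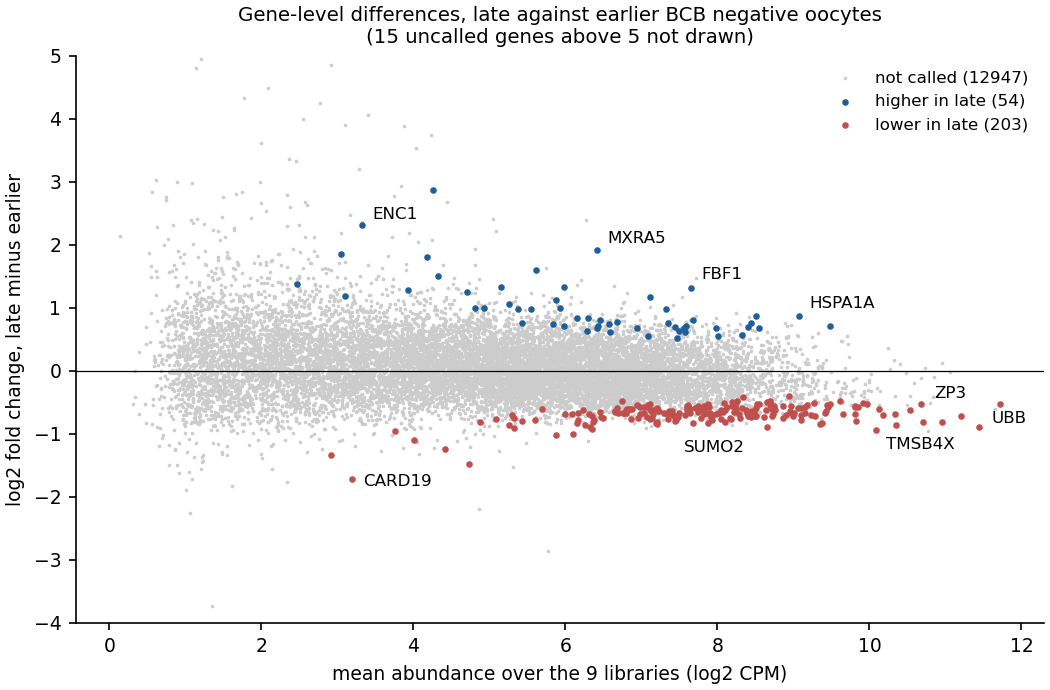
Log2 fold change of each gene, late minus earlier BCB negative oocytes, against its mean abundance on the log2 CPM scale over the 9 libraries. Blue points are the 54 genes called higher and red points the 203 called lower at an FDR under 0.01, and the red points lie mostly to the right, among the highly counted genes. The 15 uncalled genes above 5 are not drawn.

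The number of calls depended on the 3 earlier libraries and on the adjustment for depth. Leaving out the oocyte of complex 65 left 2 calls, and leaving out 66 or 68 left 0, with 3437 and 3200 genes at an unadjusted p under 0.05, against 3974 (30.1%) with all libraries. Without a late oocyte the count was 49 (complex 90), 77 (88), 108 (86), 120 (91), 121 (89) or 411 (87). With the log10 total as a covariate the edgeR count was 0 (1207 at an unadjusted p under 0.05), and DESeq2 without that covariate called 1465. Under the covariate the 28 called genes among those named had the same sign, with log2 fold changes 0.595 to 1.89 times their value (median 1.08) and edgeR FDRs of 0.456 to 0.721. Scaling to library totals alone moved the split to 56 higher and 54 lower genes. A rule modelled on the study's, which asks for both an edgeR likelihood-ratio test without TMM and DESeq2, gave 583 higher and 348 lower. It used the gene filter of this comparison and not the study's, and no robust dispersions. Thinning every library to the smallest total left 230 calls, 223 of them among the 257. For the 28 called genes that the rule for named genes took, leaving out any single library kept the log2 fold change within 0.817 to 1.16 times its value. These genes were selected in the same contrast and their groups did not overlap, so a change of direction could hardly occur. The range is given as a description.

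Ubiquitin transcripts were among the largest falls of the genes with a symbol. UBB, which encodes a polyubiquitin precursor, stood at 3972, 3959 and 4186 CPM in the earlier oocytes and 1945 to 2451 CPM in the late oocytes (median 2183). The late libraries all lay below the earlier ones for UBB, a log2 fold change of -0.90 ± 0.08 (SE; edgeR FDR = 0.00139). SUMO2, the precursor of a ubiquitin-like modifier, stood at 593, 583 and 567 CPM in the earlier oocytes and 247 to 370.2 CPM in the late oocytes (median 317). For SUMO2 the groups did not overlap, and the log2 fold change came to -0.88 ± 0.12 (SE; edgeR FDR = 0.00334). Complex 6 lay between the groups for SUMO2 at 413 CPM, as it did for UBB at 3046. SKP1, the adaptor that joins F-box proteins to the SCF ubiquitin ligase, was measured at 287 ± 7.04 CPM in the earlier and 195 ± 17.99 in the late oocytes (log2 fold change -0.56 ± 0.09, edgeR FDR = 0.00693). Over the list of the oocyte's ubiquitin system, 2 of 11 tested members fell and none rose (1.54% of all genes fell), with a median of -0.12 beside 0.03 over all genes. At an FDR under 0.05, DCAF13, a CRL4 substrate receptor of growing oocytes, was lower (log2 fold change -0.48 ± 0.11, edgeR FDR = 0.0205) while DCAF1, another receptor of that ligase, was higher (log2 fold change 0.56 ± 0.13, edgeR FDR = 0.0238). UBB and SUMO2 have close copies in mammalian genomes, and whether reads were shared was not examined here.

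TMSB4X and TMSB4, named for actin-binding thymosins, were among the 10 largest named falls as well. TMSB4X, which holds actin monomers in reserve, stood at 1596, 1746 and 1433 CPM in the earlier oocytes and 707 to 1026 CPM in the late oocytes (median 809.7). No late library reached the earlier range of TMSB4X, whose log2 fold change was -0.94 ± 0.11 (SE; edgeR FDR = 0.00263). The identifier named TMSB4 stood at 121, 136 and 90.01 CPM in the earlier oocytes and 54.8 to 82.4 CPM in the late oocytes (median 57.7). TMSB4 was lower in each late oocyte than in any earlier one, and its log2 fold change was -0.89 ± 0.16 (SE; edgeR FDR = 0.00889). The names are those of closely related genes, and whether they shared reads was not examined here. PDCD5, which binds the chaperonin that folds cytoskeletal proteins, had the least relative spread among the earlier oocytes of the 10 largest named falls, at 341, 336 and 336 CPM in the earlier oocytes and 172 to 210.0 CPM in the late oocytes (median 199.8). The log2 fold change was -0.78 ± 0.08 (SE; edgeR FDR = 0.00263), and complex 6, at 175 CPM, lay within the late range. DDX25, a germ cell RNA helicase, was measured at 384 ± 18.9 CPM in the earlier and 219 ± 33.99 in the late oocytes (log2 fold change -0.81 ± 0.13, edgeR FDR = 0.00573). The largest named fall was CARD19, a caspase recruitment domain protein, at 23.99, 16.1 and 11.7 CPM in the earlier oocytes and 2.66 to 7.45 CPM in the late oocytes (median 5.79). The late libraries all lay below the earlier ones for CARD19, a log2 fold change of -1.72 ± 0.32 (SE; edgeR FDR = 0.00981). CARD19 was also the least counted of the 10 largest named falls, and its earlier libraries varied by more than the gap to the highest late library. The rest of the 10 largest falls among called genes with a symbol were POLR1D, a subunit shared by RNA polymerases I and III (log2 fold change -0.79 ± 0.11, edgeR FDR = 0.00402), ATP6V0E1, a subunit of the vacuolar proton pump (log2 fold change -0.78 ± 0.15, edgeR FDR = 0.00994), and DERL2, which helps to draw misfolded proteins out of the endoplasmic reticulum (log2 fold change -0.77 ± 0.12, edgeR FDR = 0.00573). Of the called genes without a symbol that met the same limits on level and overlap, 31 fell by more than the smallest of these 10.

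**Figure D2:**
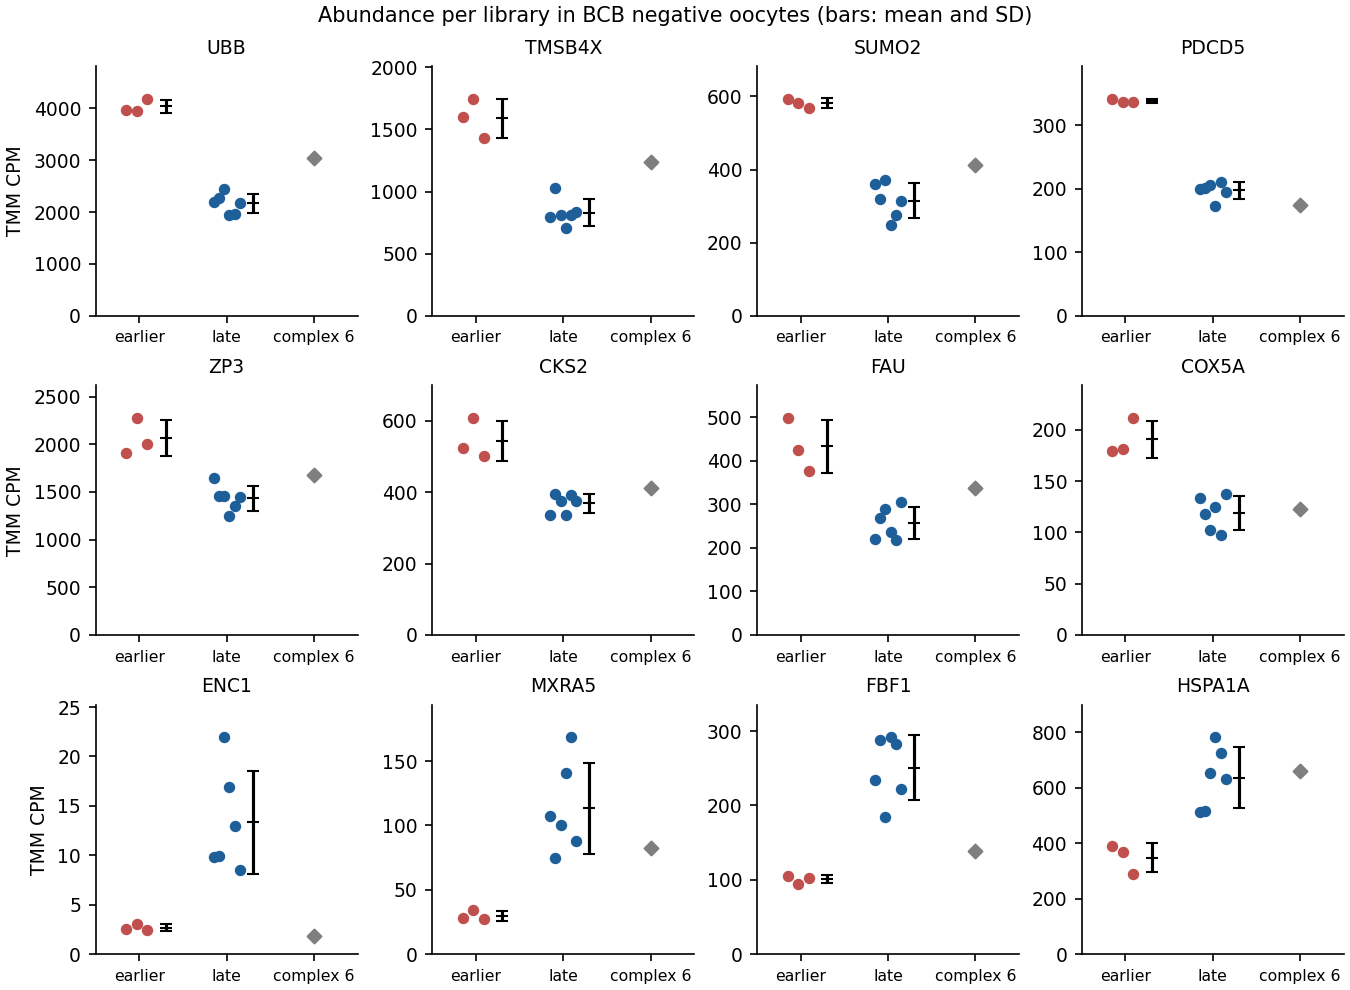
TMM-scaled CPM of 12 genes in each earlier (red, n = 3), late (blue, n = 6) and complex 6 (grey diamond) BCB negative oocyte, on linear axes from 0, with the mean and SD of each group as black bars. The top 2 rows hold genes that fell and the bottom row genes that rose, and in each panel the red and blue points do not overlap.

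Of 4 transcripts that mark the oocyte, ZP3 fell in the late group (1.54% of all genes fell), and as a sum the 4 were lower. ZP3, a glycoprotein of the zona pellucida that takes part in sperm binding, stood at 1908, 2276 and 2007 CPM in the earlier oocytes and 1250.3 to 1648 CPM in the late oocytes (median 1449). For ZP3 the groups did not overlap, and the log2 fold change came to -0.52 ± 0.09 (SE; edgeR FDR = 0.00889). ZP2, its partner in the zona, stood at 1997, 2376 and 2299 CPM in the earlier oocytes and 1398 to 1933 CPM in the late oocytes (median 1451) and missed the threshold (log2 fold change -0.51 ± 0.11, edgeR FDR = 0.0171). KIT, the receptor for the Kit ligand of granulosa cells, was measured at 300.3 ± 12.4 CPM in the earlier and 284 ± 18.5 in the late oocytes (log2 fold change -0.08 ± 0.08, edgeR FDR = 0.553). DAZL, a germ cell translational regulator, was measured at 185 ± 163 CPM in the earlier and 105 ± 63.8 in the late oocytes (log2 fold change -0.82 ± 0.58, edgeR FDR = 0.374), with complex 65 alone at 372 CPM. These 4 genes summed to 3081 to 3992 CPM in the late and 4351 to 4874 CPM in the earlier oocytes, without TMM scaling (exact permutation p = 0.0119, the smallest the design allows). Of the 22 oocyte markers written down, 18 had no identifier paired with their symbol, GDF9 and BMP15 among them, and were not analysed here. Of the 6 genes tested of the subcortical complex and other maternal effect genes none was called (1.95% of all genes were), with a median of 0.27, and of the 4 tested of the growth factor and zona list only ZP3 was, with a median of -0.30.

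Of the genes of meiosis and cell cycle control, 2 of 16 tested fell and none rose (1.54% of all genes fell). CKS2, a small subunit that cyclin-dependent kinases need in meiosis, stood at 523, 608 and 502 CPM in the earlier oocytes and 336 to 395 CPM in the late oocytes (median 375). No late library reached the earlier range of CKS2, whose log2 fold change was -0.56 ± 0.09 (SE; edgeR FDR = 0.00620). BUB3, a spindle checkpoint protein, stood at 509, 476 and 556 CPM in the earlier oocytes and 331 to 398 CPM in the late oocytes (median 362). BUB3 was lower in each late oocyte than in any earlier one, and its log2 fold change was -0.50 ± 0.09 (SE; edgeR FDR = 0.00960). CCNB1, the cyclin B of maturation promoting factor, just missed the threshold at 1091 ± 119 CPM in the earlier and 752 ± 72.1 in the late oocytes (log2 fold change -0.54 ± 0.10, edgeR FDR = 0.0103), and PPP2CA, a catalytic subunit of protein phosphatase 2A, followed (log2 fold change -0.34 ± 0.08, edgeR FDR = 0.0246). The median over the list was -0.09, beside 0.03 over all genes, and 0.00 beside 0.11 with library totals alone.

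Genes of protein synthesis, respiration and protein breakdown mostly had negative log2 fold changes, though few passed the threshold. For cytosolic ribosomal proteins, 13 of 16 values were negative, 1 fell at an FDR under 0.01 and 5 at under 0.05, and the median was -0.37 (-0.28 with library totals alone). For mitochondrial ribosomal proteins, 26 of 29 were negative, none fell at 0.01 and 4 at 0.05, with a median of -0.34 (-0.25). For the nuclear encoded respiratory chain, 19 of 23 were negative, 1 fell at 0.01 and 6 at 0.05, with a median of -0.34 (-0.25). For proteasome subunits, 16 of 21 were negative, 1 fell at 0.01 and 7 at 0.05, with a median of -0.19 (-0.10). Over all genes, 52.3% of the values were positive, the median was 0.03 (0.11), and 1.54% of genes fell at 0.01 and 6.9% at 0.05. No member of the 4 lists rose at either threshold.

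FAU, which encodes a ubiquitin-like protein fused to ribosomal protein S30, stood at 499, 425 and 376 CPM in the earlier oocytes and 219 to 306 CPM in the late oocytes (median 253). The late libraries all lay below the earlier ones for FAU, a log2 fold change of -0.75 ± 0.13 (SE; edgeR FDR = 0.00763). RPL5, a protein of the large ribosomal subunit, passed at 0.05 alone (log2 fold change -0.54 ± 0.10, edgeR FDR = 0.0107). FAU and ribosomal protein genes have processed copies in mammalian genomes, so their counts are uncertain where reads could be shared. COX5A, a subunit of cytochrome c oxidase, stood at 179.6, 181 and 211 CPM in the earlier oocytes and 97.4 to 138 CPM in the late oocytes (median 121). For COX5A the groups did not overlap, and the log2 fold change came to -0.68 ± 0.13 (SE; edgeR FDR = 0.00960). NDUFB3, of complex I, was lower at 0.05 alone (log2 fold change -0.83 ± 0.18, edgeR FDR = 0.0163). PSMA5, an alpha subunit of the proteasome core, stood at 370.4, 332 and 335 CPM in the earlier oocytes and 180.4 to 266 CPM in the late oocytes (median 227). No late library reached the earlier range of PSMA5, whose log2 fold change was -0.62 ± 0.11 (SE; edgeR FDR = 0.00852). PSMD9, an assembly chaperone of the regulatory particle, was lower at 0.05 alone (log2 fold change -0.45 ± 0.09, edgeR FDR = 0.0140). Complex 6 lay below the earlier range of FAU, COX5A and PSMA5, at 338, 123 and 249 CPM. The 13 proteins of mitochondrial DNA gave 7 negative and 6 positive values, none called, and the median of -0.19 turned to 0.77 with the log10 total as a covariate.

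**Figure D3:**
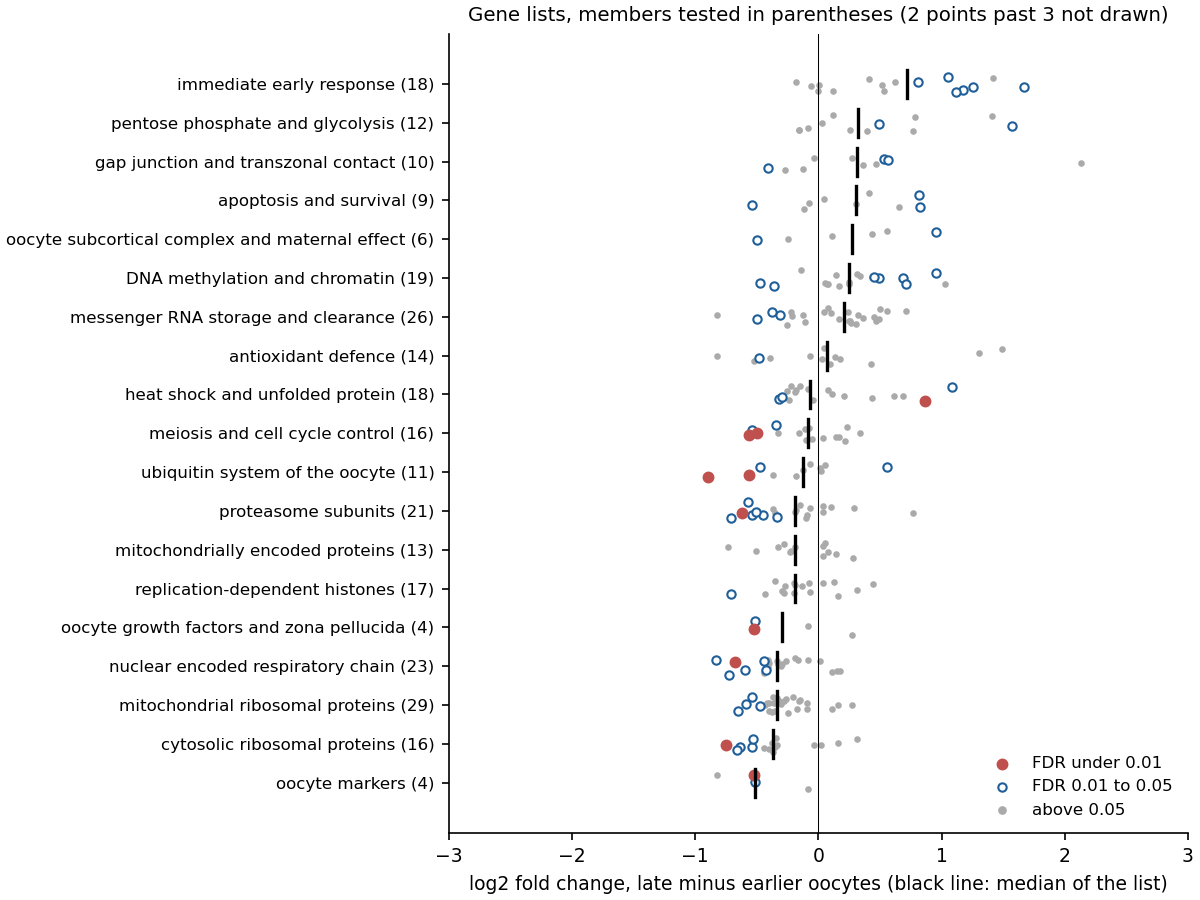
Log2 fold changes, late minus earlier oocytes, of the tested members of each gene list with at least 4 of them, without the cumulus markers, with red points for an FDR under 0.01, open blue points for 0.01 to 0.05 and black lines for list medians. Ribosomal, respiratory chain and proteasome genes lie mostly left of 0, and the immediate early genes have the highest median, 0.72.

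The largest rises among called genes with a symbol were of genes with fewer counts. ENC1, an actin-associated Kelch protein, stood at 2.58, 3.05 and 2.42 CPM in the earlier oocytes and 8.50 to 21.96 CPM in the late oocytes (median 11.4). ENC1 was higher in each late oocyte than in any earlier one, and its log2 fold change was 2.31 ± 0.36 (SE; edgeR FDR = 0.00515). ENC1 was highest in complexes 88 and 89, at 21.96 and 16.9 CPM, and complex 6, at 1.80 CPM, lay below the earlier oocytes. Complexes 88 and 89 were also the late oocytes with the highest sums of 19 cumulus markers (1932 and 725 CPM), and ENC1 stood at 418 CPM on average in the late cumulus cells. With the log2 sum of these 19 markers as a covariate, ENC1 had a log2 fold change of 1.82 ± 0.28 (SE; edgeR FDR = 0.0179) and was no longer called. That was so for 26 of the 28 called named genes, TMSB4X at the same FDR among them, with a log2 fold change of -0.88. MXRA5, a secreted matrix-remodelling protein, stood at 28.3, 34.3 and 26.99 CPM in the earlier oocytes and 74.5 to 169 CPM in the late oocytes (median 104). The late libraries all lay above the earlier ones for MXRA5, a log2 fold change of 1.92 ± 0.26 (SE; edgeR FDR = 0.00300). FBF1, a protein of the ciliary transition fibres, stood at 105, 94.4 and 102 CPM in the earlier oocytes and 185 to 292 CPM in the late oocytes (median 259). For FBF1 the groups did not overlap, and the log2 fold change came to 1.32 ± 0.15 (SE; edgeR FDR = 0.00263). In all 3 genes the late oocytes spread more than the earlier ones. FASN, the fatty acid synthase, stood at 33.99, 31.2 and 33.3 CPM in the earlier oocytes and 58.8 to 99.8 CPM in the late oocytes (median 63.4). No late library reached the earlier range of FASN, whose log2 fold change was 1.13 ± 0.19 (SE; edgeR FDR = 0.00720). ZNF687, a zinc finger protein, had the tightest late group of the 10 largest named rises relative to its mean, at 24.8, 21.01 and 20.2 CPM in the earlier oocytes and 43.03 to 47.8 CPM in the late oocytes (median 46.5). ZNF687 was higher in each late oocyte than in any earlier one, and its log2 fold change was 1.06 ± 0.13 (SE; edgeR FDR = 0.00263).

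PDE4A, a phosphodiesterase that breaks down cyclic AMP, the second messenger that holds meiosis in arrest, was measured at 17.7 ± 1.21 CPM in the earlier and 44.4 ± 13.5 in the late oocytes (log2 fold change 1.32 ± 0.23, edgeR FDR = 0.00849). The rest of the 10 largest rises among called genes with a symbol were DENND2B, a Rab exchange factor (log2 fold change 1.32 ± 0.23, edgeR FDR = 0.00763), CUL9, a cullin of the ubiquitin ligases (log2 fold change 1.00 ± 0.17, edgeR FDR = 0.00705), ADAMTS7, a secreted metalloprotease (log2 fold change 0.99 ± 0.18, edgeR FDR = 0.00981), and B4GALT1, a galactosyltransferase of the Golgi (log2 fold change 0.98 ± 0.18, edgeR FDR = 0.00960). Of the called genes without a symbol, 12 that met the same limits rose by more than the smallest of these 10, and 1 by more than ENC1. HSPA1A, the inducible heat shock protein of the HSP70 family, stood at 388, 367 and 289.7 CPM in the earlier oocytes and 512 to 782 CPM in the late oocytes (median 641). The late libraries all lay above the earlier ones for HSPA1A, a log2 fold change of 0.87 ± 0.15 (SE; edgeR FDR = 0.00853). The heat shock list had a median of -0.07, and 0.02 with library totals alone. HSPA1A was the single member of 18 tested heat shock and unfolded protein genes that was called (0.409% of all genes rose), and a close copy could share its reads. The late cumulus cells held HSPA1A at 1374 and FASN at 243 CPM on average, above the late oocytes. At 0.05 the list held ERN1, a sensor of unfolded protein, among the higher genes (log2 fold change 1.08 ± 0.23, edgeR FDR = 0.0163) and the chaperone HSP90AA1 among the lower (log2 fold change -0.32 ± 0.08, edgeR FDR = 0.0270).

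No immediate early gene passed the threshold of 0.01, but 7 of 18 were higher at an FDR under 0.05 and none lower, where 4.98% of all genes were higher at that threshold, and the list median was 0.72. EGR1, a growth factor-induced transcription factor, stood at 8.67, 8.40 and 8.26 CPM in the earlier oocytes and 10.5 to 42.3 CPM in the late oocytes (median 28.7). For EGR1 the groups did not overlap, and the log2 fold change came to 1.67 ± 0.36 (SE; edgeR FDR = 0.0163). JUN, a subunit of AP-1, stood at 38.4, 44.3 and 26.9 CPM in the earlier oocytes and 53.5 to 133 CPM in the late oocytes (median 76.2). No late library reached the earlier range of JUN, whose log2 fold change was 1.17 ± 0.30 (SE; edgeR FDR = 0.0308). FOSB, its partner, and DUSP6, a phosphatase that ends ERK signalling, gave 1.26 and 1.05 (edgeR FDR = 0.0272 and 0.0259). The BCB positive oocytes of complexes 69 to 74 ran from 14.2 to 381 CPM for EGR1 and from 68.3 to 334 CPM for JUN, above every earlier oocyte, while those of complexes 17, 19 and 24 ran from 11.2 to 17.8 CPM and from 31.6 to 75.7 CPM, which overlapped the earlier oocytes for JUN. Cumulus cells also express such genes, and of the 6 late oocytes those of complexes 88 and 89 had both the highest sums of cumulus markers and the highest FOSB (13.1 and 13.3 CPM). EGR1 was highest in complex 89 (42.3 CPM) and JUN in complex 88 (133 CPM), and the late cumulus cells averaged 941 CPM of EGR1 and 1208 CPM of JUN. The other 4 late oocytes, of complexes 86, 87, 90 and 91, had marker sums of 285, 255, 189.6 and 198 CPM and EGR1 at 29.7, 21.4, 29.9 and 10.5 CPM. In complex 88, with the highest marker sum, EGR1 stood at 27.8 CPM, below complexes 86 and 90. JUN stood at 98.2 CPM in complex 90 and at 90.1 CPM in complex 89. With the sum of 19 markers as a covariate the log2 fold changes were 1.40 for EGR1, 0.82 for JUN and 0.85 for FOSB, with edgeR FDRs of 0.0710, 0.114 and 0.111, all above 0.05. The part of cumulus RNA in the difference was not tested beyond the marker covariates.

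Chromatin genes went both ways at the looser threshold. Of 19 tested, none was called at 0.01, and 5 were higher and 2 lower at 0.05 (4.98% and 6.9% of all genes), with a list median of 0.25. CHD4, the remodelling ATPase of the NuRD complex, was measured at 116 ± 20.5 CPM in the earlier and 189 ± 25.9 in the late oocytes (log2 fold change 0.71 ± 0.14, edgeR FDR = 0.0136). KMT2B, the methyltransferase that sets H3K4 methylation in oocytes (log2 fold change 0.69 ± 0.14, edgeR FDR = 0.0151), and EHMT1, which methylates H3K9 (log2 fold change 0.45 ± 0.10, edgeR FDR = 0.0151), were also higher. HMGB1, an abundant DNA-bending protein, was lower (log2 fold change -0.47 ± 0.10, edgeR FDR = 0.0151). TET3, the dioxygenase that oxidises methylcytosine in the zygote, stood at 76.1 ± 10.2 CPM in the earlier and 148 ± 38.1 in the late oocytes (log2 fold change 0.96 ± 0.23, edgeR FDR = 0.0231), and the groups overlapped. ZAR1L, an oocyte RNA-binding protein, was measured at 1004 ± 119 CPM in the earlier and 709 ± 60.1 in the late oocytes and missed the threshold (log2 fold change -0.50 ± 0.10, edgeR FDR = 0.0120). Among 26 genes of messenger RNA storage and clearance none was called at 0.01 and 3 were lower at 0.05, ZAR1L, YBX1 (log2 fold change -0.31 ± 0.08, edgeR FDR = 0.0265) and CPSF2 (log2 fold change -0.38 ± 0.10, edgeR FDR = 0.0370), where 6.9% of all genes were, while the list median was 0.20.

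Of 12 pentose phosphate and glycolysis genes none was called at 0.01, and HK1, a hexokinase (log2 fold change 0.49 ± 0.11, edgeR FDR = 0.0207), and PFKP, a phosphofructokinase (log2 fold change 1.57 ± 0.44, edgeR FDR = 0.0403), were higher at 0.05, where 4.98% of all genes were. No call at 0.01 was made among 14 antioxidant, 10 gap junction and transzonal contact, 9 apoptosis and 17 replication-dependent histone genes. Their medians were 0.07, 0.32, 0.31 and -0.19, the histone genes being a family of close copies whose reads could be split. At 0.05, where 6.9% of all genes were lower and 4.98% higher, the antioxidant list had 1 lower gene, the peroxiredoxin PRDX5 (log2 fold change -0.49 ± 0.12, edgeR FDR = 0.0280), and the histone list 1, an identifier named H4C3 (log2 fold change -0.71 ± 0.19, edgeR FDR = 0.0335). Of the contact genes the membrane-cytoskeleton linker EZR was lower at 2183 ± 102 CPM in the earlier and 1643 ± 137 in the late oocytes (log2 fold change -0.41 ± 0.08, edgeR FDR = 0.0143), and the focal adhesion proteins VCL (log2 fold change 0.56 ± 0.13, edgeR FDR = 0.0189) and TLN1 (log2 fold change 0.53 ± 0.12, edgeR FDR = 0.0215) were higher. Of the apoptosis genes CYCS, cytochrome c, was lower (log2 fold change -0.54 ± 0.13, edgeR FDR = 0.0230) and BCL2L11, a pro-apoptotic BH3 protein, higher (log2 fold change 0.83 ± 0.23, edgeR FDR = 0.0412), as was the anti-apoptotic BCL2L2 (log2 fold change 0.82 ± 0.23, edgeR FDR = 0.0434).

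Symbols were paired with 49 of the 203 lower and 21 of the 54 higher genes, so most of the called genes are known by identifier alone. Of those, ENSBTAG00000012184 stood at 1801, 1888 and 1913 CPM in the earlier oocytes and 934 to 1096 in the late oocytes (log2 fold change -0.86 ± 0.07, edgeR FDR = 0.00115), and ENSBTAG00000013009 stood at 3139, 3193 and 3228 CPM in the earlier oocytes and 1818 to 2131 in the late oocytes (log2 fold change -0.71 ± 0.08, edgeR FDR = 0.00263). These were the 2 unnamed falls of lowest p. Of the unnamed rises, ENSBTAG00000048514 stood at 5.08, 3.15 and 2.53 CPM in the earlier oocytes and 20.8 to 34.5 in the late oocytes (log2 fold change 2.87 ± 0.29, edgeR FDR = 0.00207), and ENSBTAG00000007909 stood at 83.1, 77.2 and 66.1 CPM in the earlier oocytes and 129 to 197 in the late oocytes (log2 fold change 1.17 ± 0.14, edgeR FDR = 0.00263). None of the 4 overlapped between groups.

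Cumulus and granulosa markers were present at different levels in the late oocyte libraries. Of the 20 markers with an identifier, all had a count in each late library, and 16 to 18 had one in the shallower earlier libraries. The mean CPM was higher in the late group for 19, and 18 were highest in complex 88 or 89 among the late oocytes. STAR, written down as a marker of these steroidogenic cells, was on the contrary an oocyte transcript in these data, at 394 to 573 CPM in the late oocytes and 8.98 on average in their cumulus cells. Without TMM scaling, the other 19 summed to 159.9, 163 and 188 CPM in the earlier oocytes, to 189.6 to 285 in late complexes 86, 87, 90 and 91, and to 725 and 1932 in 89 and 88. The groups did not overlap, and the means of 597 ± 684 and 170.4 ± 15.2 CPM gave an exact permutation p of 0.345, two-sided on the difference of means, a test added after the data were seen. In the BCB positive oocytes the same 19 summed to 142 to 5661 CPM, with 1591 CPM in complex 74 at 8886070 counts. With STAR, the 20 summed to 594 to 2519 CPM in the late and 732 to 843 in the earlier oocytes, which overlapped (exact permutation p = 0.714), and without complex 88 the difference of the means went from 293 to 7.31 CPM.

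GSTA1, a glutathione transferase of steroidogenic cells, had 0, 0 and 1 counts in the earlier oocytes and 11 to 1687 in the late oocytes, highest in complex 88 (85.7 CPM) and lowest in 91 (0.429 CPM). The groups did not overlap, but the late oocytes spread over that whole range and the gene was not called (edgeR FDR = 0.0639). CCND2, the cyclin D of granulosa cells, had 1, 2 and 0 counts in the earlier and 6 to 590 in the late oocytes (edgeR FDR = 0.0543). SRGN, a proteoglycan core protein, had 26, 15 and 15 counts in the earlier and 74 to 6735 in the late oocytes (edgeR FDR = 0.0710). None of the 15 tested markers was called, at 0.01 or at 0.05. More cumulus cells carried over and more RNA per such cell cannot be told apart in these values. Settings with the log2 sum of the markers as a covariate were added after the data were seen. With the 19 markers without STAR, 6 genes were called, 3 higher and 3 lower (3071 at an unadjusted p under 0.05), of which 5 were among the 257. UBB then had an edgeR FDR of 0.00779, and ENC1 and TMSB4X of 0.0179 and 0.0179. With all 20, a sum that STAR makes up for the most part in the earlier oocytes, 63 genes were called. Markers of theca and stroma (1 tested, COL1A2) and of blood and endothelium (2 tested, VWF and HBA) were not called, with log2 fold changes of 0.09, 0.56 and -0.15.

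**Figure D4:**
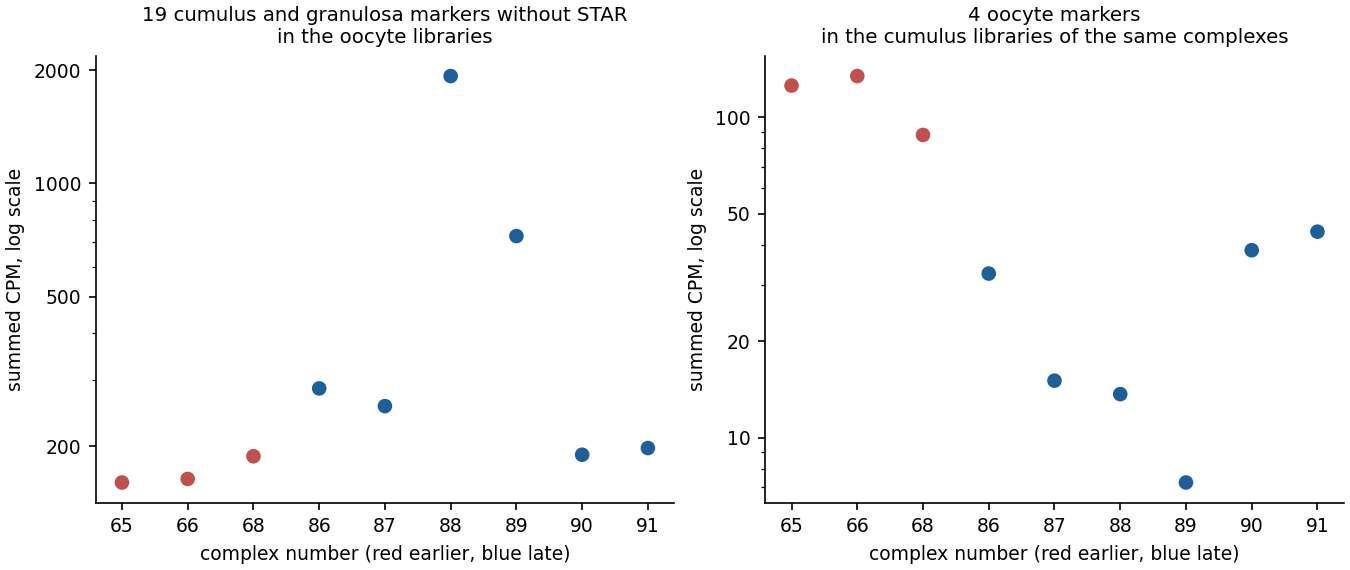
Left, summed CPM of the 19 cumulus and granulosa markers without STAR in each late and earlier oocyte library, and right, summed CPM of the 4 oocyte markers in the cumulus library of the same complex, both on log axes by complex number. Only the 9 complexes compared are drawn. Complexes 88 and 89 stand highest of these on the left, and the 3 earlier complexes (red) stand above all 6 late complexes (blue) on the right.

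In the cumulus cells of the same complexes, no gene was called between late and earlier among 12971 tested (edgeR FDR under 0.01; 1068 genes, 8.23%, at an unadjusted p under 0.05; DESeq2 called 44), and 13 genes, all lower, passed at 0.05 (0.1%). Of these 13 only 1 had a CPM above 2 in 3 late libraries, and the others passed the filter through the earlier libraries, where they were high, so neither their number nor their direction is a result. With a CPM above 2 required in all 9 libraries the lowest FDR was 0.0720. Leaving out complex 65 gave 7 calls and leaving out 86 gave 5. These libraries were shallower, with 2164674 to 8013318 counts in the late and 1103200 to 1650795 in the earlier complexes. Of the genes that fell in the late oocytes, 197 were tested in both compartments, and their median log2 fold change was -0.14 in cumulus cells and -0.67 in oocytes, and for 45 that rose it was 0.09 and 0.80. The oocyte values of these genes were selected for size, so the medians are given as a description. TMSB4X and HSPA1A had cumulus log2 fold changes of 0.77 and 4.30 (edgeR FDR = 0.531 and 0.131).

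The late minus earlier difference was itself different in oocytes and cumulus cells for 21 of 10852 genes tested in both (0.194%; edgeR interaction term, FDR under 0.01), and for 5 with the complex as a block, since oocyte and cumulus cells come from the same complex. Leaving out complex 65 gave 45 such genes, 66 or 68 gave 9 or 8, and 87, 88 or 90 gave 12, 13 or 12. All 21 had the more positive difference in oocytes, a direction that the filter had a part in: none had a CPM above 2 in 3 late cumulus libraries, 14 had it in no late cumulus library, and so each passed the filter through the earlier cumulus libraries, where it was high. Neither the shared direction nor the size of these interactions is therefore a result, and their levels are given as a description. They were genes with 96.1 to 1592 CPM on average in the late oocytes that were detected at 4.32 to 57.3 CPM on average in the earlier cumulus cells and at 0.0754 to 1.28 in the late cumulus cells. In the oocytes their own log2 fold changes ran from -0.77 to 0.81. The 4 with a symbol were ZP3, ZGLP1, TTC24 and SAXO1, the last 3 named after their values were seen. ZP3 had 7, 78 and 27 counts in the earlier and 1 to 7 counts in the late cumulus libraries. ZGLP1, a zinc finger regulator of the germ line, averaged 6.45 CPM in the earlier and 0.0894 CPM in the late cumulus libraries. At an FDR under 0.05 the interaction held for 80 genes (0.737%), 73 more positive (0.673%) and 7 more negative (0.0645%) in oocytes. Of the 73, 23 had a CPM above 2 in 3 late cumulus libraries.

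The 4 oocyte markers together made up 125, 134 and 87.9 CPM of the earlier cumulus libraries and 7.24 to 43.9 CPM of the late ones, with no overlap. In values that, like the sums, were not TMM-scaled, KIT was the largest of the 4 in each of these libraries, at 38.1 to 118 CPM against 4.62 to 37.4. ZP2 was at 0 in 2 late cumulus libraries and stood at 3.63 to 23.6 CPM in the earlier ones. In complex 65 KIT made up 118 of the 125 CPM, and ZP3 stood at 4.24 CPM, against up to 2.99 CPM in the late libraries. The BCB positive cumulus library of complex 69 held 133 CPM of the 4 markers, with ZP3 at 0.222 CPM. The remaining BCB positive cumulus libraries held 24.8 to 60.4 CPM. The part of oocyte RNA in the cumulus libraries in these interaction calls was not tested.

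Among all 19 oocytes, the 3 earlier BCB negative oocytes stood at the end of the range for the genes called here. The 203 lower genes averaged 8.23 to 8.29 on the log2(CPM + 1) scale in the earlier oocytes, 7.48 to 7.69 in the late ones, 7.70 in complex 6 and 7.61 to 7.97 in the 9 BCB positive oocytes. The 54 higher genes averaged 5.58 to 5.71, 6.46 to 6.74, 6.30 and 5.76 to 6.58 in the same order. The genes were selected for a gap between the late and the earlier oocytes, so the place of the other libraries is a description. Complex 6 was past the earlier range, on the side of the late oocytes, for 197 of the 203 and 48 of the 54 genes, and adding it to the earlier group left 6 calls. Each of the 6 BCB positive oocytes of complexes 69 to 74, whose numbers lie in the run of the earlier oocytes, was past the earlier range for 165 of the 203 and 37 of the 54. All 9 BCB positive oocytes were past it for 93 and 17.

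The BCB positive oocytes of complexes 69 to 74 included shallow and deep libraries. The shallowest, complex 74 with 8886070 counts, averaged 7.89 over the 203 genes and 6.38 over the 54, and the deepest, complex 70 with 26908499 counts, averaged 7.62 and 6.51. Other BCB positive oocytes with totals within the range of the earlier oocytes were those of complexes 19 (9837533 counts), 73 (11481705) and 24 (13077094). They averaged 7.61, 7.80 and 7.97 over the 203 genes and 6.58, 6.31 and 5.76 over the 54, so over the 54 genes complex 24 lay near the earlier oocytes and complex 19 within the range of the late ones. UBB ran from 2109.7 to 3433 CPM in complexes 69 to 74, below the 3959 CPM of the lowest earlier oocyte, but from 3634 to 4225 CPM in complexes 17, 19 and 24, which overlapped the earlier oocytes. The mean over the 203 genes and the log10 total had a Pearson's r of -0.71 and a Spearman's rho of -0.60 over the 6 oocytes of complexes 69 to 74, -0.24 and -0.13 over all 9 BCB positive oocytes, and 0.05 and -0.03 over the 6 late oocytes. Over the 54 genes r was -0.09, -0.10 and -0.08 in the same order. Without the 2 libraries farthest from the median depth, r over the 203 genes became 0.28, 0.16 and -0.29, and r over the 54 genes became -0.87, -0.57 and 0.61. Over the 203 genes each changed its sign, and over the 54 genes each grew in size, falling with depth in both BCB positive sets and rising in the late oocytes. These are descriptions over few libraries, and CPM is itself computed from the total. Neither the covariate nor the thinning can separate depth from run. The totals do not overlap between the groups, and thinning acts on counts from which duplicates were already removed. The part of depth in the differences was not tested.

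**Figure D5:**
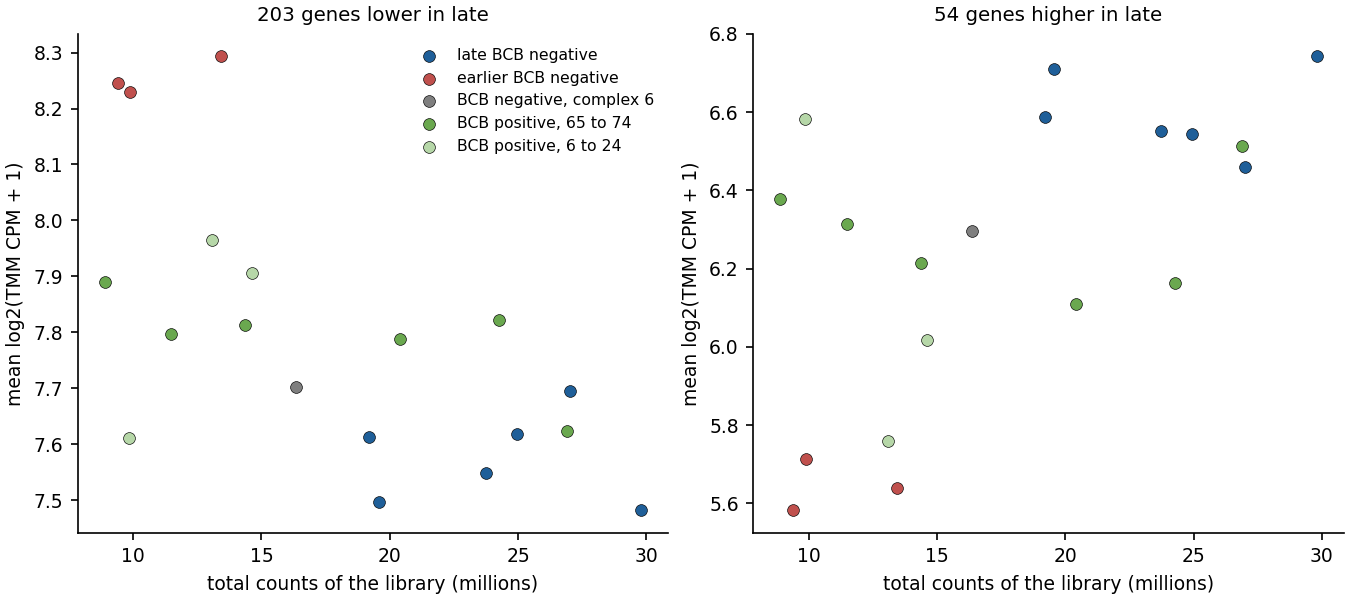
Mean log2(CPM + 1) of the 203 lower genes (left) and of the 54 higher genes (right) in each of the 19 oocyte libraries against its total counts in units of 1000000, coloured by group. The 3 earlier BCB negative oocytes (red) have the highest means on the left and the lowest on the right, and the BCB positive oocytes lie below them on the left and above them on the right, with complexes 19 and 70 within the range of the late oocytes (blue) on both sides.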

How the data were processed

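RNA of single oocytes and of the cumulus cells around them was sequenced after mcSCRB-seq style amplification and Nextera DNA Flex library preparation. The authors trimmed the reads, aligned them to ARS-UCD1.2 with HISAT2 2.1.0, filtered with Samtools, sorted with Picard, and counted reads on Ensembl genes with featureCounts 1.6.0 with duplicates removed. The deposited values are these raw counts, whole numbers for 27607 identifiers per compartment. The primers given carry no molecular identifier, so counts are of amplified reads, and duplicate removal can lower the counts of highly read genes more in a deeper library.

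Groups came from the complex number and BCB class in the labels. Tested were the genes that passed a CPM of 2 in 3 or more libraries, by edgeR 4.0.16 in R 4.3.3 (TMM, robust dispersions, quasi-likelihood test), with DESeq2 1.42.0 as an alternative, and FDR is the Benjamini-Hochberg adjusted p. SE is the log2 fold change over the root of the F statistic. CPM of single genes is TMM-scaled unless stated, and sums of markers are not. Library values were compared with exact permutation tests. The tests were tried on simulated counts. Oocyte and cumulus cells of a complex are paired by the complex number they share in the labels. Their deviations from the group means correlated with r from -0.0248 to 0.153. The highest log2 correlation between oocyte libraries was 0.981, and no pair agreed within sampling noise.

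Symbols for 4934 identifiers came from the study's supplementary tables, which list genes by the study's own results, so the named genes are no random sample of the 13204. Named were, from the called genes with a symbol, the 10 rises and 10 falls of largest fold, a mean CPM of at least 5 and groups that did not overlap, up to 4 members of lowest p per list with its called members where these were 6 or fewer, and ZP3 and GSTA1. Of these 95 genes some are given by counts alone, and some results are not reported here. The members and lists were chosen with earlier results of these data known. Figures used Python 3.11.15 and matplotlib 3.10.9. Sequences were not analysed here. Alternatives were other scalings, filters, thresholds and tools, depth or marker covariates, thinning, complex 6 or all oocytes added, and each library left out.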

Additional observations from a re-analysis of the deposited data

Results flagged for a closer look

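Within the late group, single libraries lay far from the other 5 for 5 of 101 values examined (by Dixon's ratio of the gap to the range), and chance gives about 1 in 20 such cases. The summed CPM of cumulus and granulosa markers was highest in complex 88 (ratio 0.678). PDE4A was highest in complex 90 (ratio 0.641). ATP6V0E1 and the mitochondrially encoded ATP6 were lowest in complex 89 (ratios 0.712 and 0.676). The histone gene H3C7 was lowest in complex 86 (ratio 0.635). ZP3 differed between compartments, with a late minus earlier log2 difference 4.79 larger in oocytes than in cumulus cells by the interaction term. ZP3 passed the low count filter in cumulus cells only with the earlier libraries, where it was high, so this value is a description, and its call was lost with the complex as a block. The causes were not tested.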

How the results depend on the processing

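The count of 257 genes between late and earlier oocytes moved to 1465 with DESeq2, 931 with the rule modelled on the study's and 110 with library totals alone. It moved to 1568 at an FDR of 0.05, 0 with log10 total as a covariate and 6 with complex 6 added. With the marker covariate it was 63 (6 without STAR in it). Leaving out each library gave 0 to 411; late complexes 86, 88, 89, 90 and 91 each left 49 to 121, and 87 gave 411. It stayed within 1.5 times under DESeq2's size factors (262), the stricter filter of 2 CPM in every library (318), no filter at all (181), thinning (230), all 19 oocytes in the fit (329) and without the 13 mitochondrial genes (262). Without an earlier library the 28 called named genes had FDRs of 0.0102 to 0.0530. Fewer samples enter those fits.

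In cumulus cells the count of 0 became 44 with DESeq2, 13 at 0.05 and 0 to 7 with a library left out. The 21 interaction calls became 5 with the replicate block, 158 with DESeq2, 80 at 0.05 and 8 to 45 with a complex left out. The mitochondrial share, not called, turned to 0.00987 percentage points with complex 6 added and ran from -0.0296 to 0.00371 with a library left out. The other library values kept direction and side of 0.05 (exact permutation p, unadjusted). Where the groups did not overlap, leaving out a library always gives the smallest p possible, so that outcome was fixed in advance.

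Of the uncalled genes, KIT changed sign with library totals alone (0.00418) and with the rule modelled on the study's (0.00436). ND3 (0.43), CYTB (0.0663) and ATP6 (0.77) did so with the depth covariate. With a library left out, DAZL (-1.17 to 0.21), COL1A2 (-0.0545 to 0.35), HBA (-0.263 to 0.11) and CD9 (-0.0178 to 0.53) changed sign. No called named gene changed sign, but their groups did not overlap, which leaves little room for it when a library is left out. The cause of each change was not tested. With 3 earlier libraries, all shallower than the late ones, depth and run cannot be separated, and an exact test cannot go below p = 0.0119.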
